A study of Mus musculus with 3 samples.

Results

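The 10 genes described here are the transcription factor gene Nfe2l2, its inhibitor gene Keap1, and 8 genes of antioxidant defence: Gclm, Gclc, Txnrd1, Srxn1, Nqo1, Slc7a11, Sod1 and Sod2. They were chosen by name, as a set of genes under or around the factor NRF2, and all 10 were found among the 55536 genes of the deposited gene tables. Sod1 and Sod2 are antioxidant genes that are less tied to NRF2 than the other targets.

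The libraries were total RNA sequencing of the chromatin fraction, after ribosomal RNA depletion, from primary bone marrow-derived macrophages of C57BL/6J mice. RNA held on chromatin includes many transcripts whose synthesis or splicing is unfinished. The macrophages had received Lipid A, the TLR4-activating part of bacterial lipopolysaccharide, at 100 ng/ml for 12 h, were kept without it for 12 h after washing, and then received 100 ng/ml again for 20 min. This was the only group, with 3 libraries labelled biological replicates 1, 2 and 3, made from 1 µg, 250 ng and 500 ng of RNA. The labels give the 3 libraries 1 donor entry and no age or sex, and part of the spread between them may be technical. Unexposed cells and cells with a single exposure were not analysed here, so no value below is an effect of Lipid A, and no test between groups was possible.

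NRF2, the protein of Nfe2l2, is held in the cytoplasm by KEAP1, which presents it to a CUL3 ubiquitin ligase for degradation. Electrophiles and oxidants modify cysteines of KEAP1, NRF2 then escapes, enters the nucleus and binds antioxidant response elements together with a small MAF protein. Its targets supply glutathione, thioredoxin and NADPH and detoxify quinones. In macrophages NRF2 is also known to restrain inflammatory gene expression, and BACH1 occupies the same elements as a repressor. Most control of NRF2 acts on the protein, so the RNA level of Nfe2l2 is not a measure of NRF2 activity.

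The promoters of the factor gene and of 3 targets that are described together further on are shown because the element that NRF2 binds can be read in them. Each runs from 250 bases before to 50 bases after an annotated start, on the strand of the gene, from RefSeq on GRCm38.p6. Capitals mark the core of the antioxidant response element on either strand, searched as TGACNNNGC and as TGAGNNNGC.
Nfe2l2, chr2:75704614-75704913, minus strand: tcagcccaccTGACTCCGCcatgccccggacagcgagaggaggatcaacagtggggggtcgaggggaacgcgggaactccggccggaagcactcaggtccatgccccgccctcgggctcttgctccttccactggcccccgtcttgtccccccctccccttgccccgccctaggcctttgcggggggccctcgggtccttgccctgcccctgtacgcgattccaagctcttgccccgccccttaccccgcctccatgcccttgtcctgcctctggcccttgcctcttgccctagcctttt
Gclm, chr3:122245307-122245606, plus strand: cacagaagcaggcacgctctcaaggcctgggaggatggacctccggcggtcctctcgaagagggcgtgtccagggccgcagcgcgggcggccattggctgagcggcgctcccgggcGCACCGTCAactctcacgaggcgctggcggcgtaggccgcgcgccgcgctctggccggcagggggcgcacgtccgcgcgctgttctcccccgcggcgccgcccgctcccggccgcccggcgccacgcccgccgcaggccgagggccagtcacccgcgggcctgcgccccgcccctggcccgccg
Txnrd1, chr10:82858956-82859255, plus strand: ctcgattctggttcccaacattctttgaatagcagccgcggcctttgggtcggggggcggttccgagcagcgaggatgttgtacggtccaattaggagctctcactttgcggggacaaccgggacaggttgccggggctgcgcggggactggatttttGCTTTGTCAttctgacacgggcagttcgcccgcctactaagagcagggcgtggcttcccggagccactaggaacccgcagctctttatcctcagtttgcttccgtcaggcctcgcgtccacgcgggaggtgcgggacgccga
Srxn1, chr2:152105274-152105573, plus strand: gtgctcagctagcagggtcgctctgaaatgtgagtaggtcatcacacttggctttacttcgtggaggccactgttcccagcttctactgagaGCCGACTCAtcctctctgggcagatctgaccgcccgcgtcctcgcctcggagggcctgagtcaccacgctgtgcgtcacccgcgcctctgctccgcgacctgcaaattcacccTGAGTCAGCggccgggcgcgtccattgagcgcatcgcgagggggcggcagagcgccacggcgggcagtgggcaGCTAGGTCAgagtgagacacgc

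Nfe2l2 itself carried TGACTCCGC, which began 240 bases upstream of its start. In Gclm the match lay on the minus strand and began 134 bases upstream, and in Txnrd1 it began 92 bases upstream of the second of 3 annotated starts. Srxn1 had TGAGTCAGC 45 bases upstream, GCCGACTCA 158 bases upstream and GCTAGGTCA 28 bases downstream of its start. Of the 9 members with a promoter in the RefSeq table, 5 held TGACNNNGC (Nfe2l2, Gclm, Txnrd1, Srxn1 and Sod1), whereas 14.0% of 27025 genes did. The form TGAGNNNGC, added after the sequences were seen, was in 2 of the 9 (Srxn1 and Slc7a11) and in 19.8% of the same genes. A core of the NF-kB site, searched on both strands as GGGA and TCC with any 3 bases between them, was in 1 of the 9, Keap1, and in 5.21% of the genes. The cores of these motifs do not share letters in any of the printed promoters. Gclc is named only. A match is a description of letters, and a missing match says only that these letters are not in this window.

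The libraries held 13953780, 24222661 and 16571228 expected counts in replicates 1, 2 and 3. All 8 macrophage markers reached 1 TPM (a transcript level scaled for length and for the size of the library) in every library, with a summed level of 833 to 1033 TPM. Neutrophil markers reached it in 0 of 8 cases, T and NK cell markers in 0 of 6 and B cell markers in 0 of 5. Mast cell and basophil markers did so in 0 of 4. These marker levels are from the gene table. In a second quantification of the same libraries some of these markers averaged more, such as Cd3d at 14.0, Cxcr2 at 4.42 and Ebf1 at 2.80 TPM. Others stayed at 0 there, such as S100a8, Cd2 and Klrb1c. In the erythroid list, Alas2 alone carried 14.2, 9.44 and 9.37 TPM, and Hbb-bs was listed at 0. Zbtb46 of the dendritic list had 1.57, 1.20 and 1.46 TPM, and Pecam1 of the stroma and endothelium list 2.15, 1.71 and 0.99 TPM. Inflammatory genes differed strongly between the libraries. All 6 of a list that was picked because it varies here (Acod1, Nfkbia, Tnf, Tnfaip3, Cxcl2 and Il1b) had their highest value in replicate 1 and their lowest in replicate 2. Tnf stood at 307, 46.8 and 122 TPM.

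The members spanned more than 3 orders of magnitude in level. In the gene table Sod2 and Nfe2l2 stood at the top, and Txnrd1 and Keap1 followed. Sod1, Srxn1, Gclm and Gclc were at a few TPM there, Slc7a11 was near 1 TPM and Nqo1 was at the detection limit. In TPM 8 of the 10 members reached 1 in every library, against 45.2% of 22028 protein-coding genes, and Slc7a11 and Nqo1 did not. In the second table, a separate quantification of the same libraries, 9 of the 10 did, against 56.2%. The median member was 2.28 above the median protein-coding gene on the log2(TPM + 1) scale, and 2.29 ± 0.03 above it per library (SD, n = 3 libraries). Against protein-coding genes averaging 1 TPM or more the same difference was -0.54, so the list lay above the median of all genes and below the median of the genes that were measurably present. In bulk RNA fewer cells of a type and less RNA per cell cannot be told apart, which holds for each level here.

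**Figure D1:**
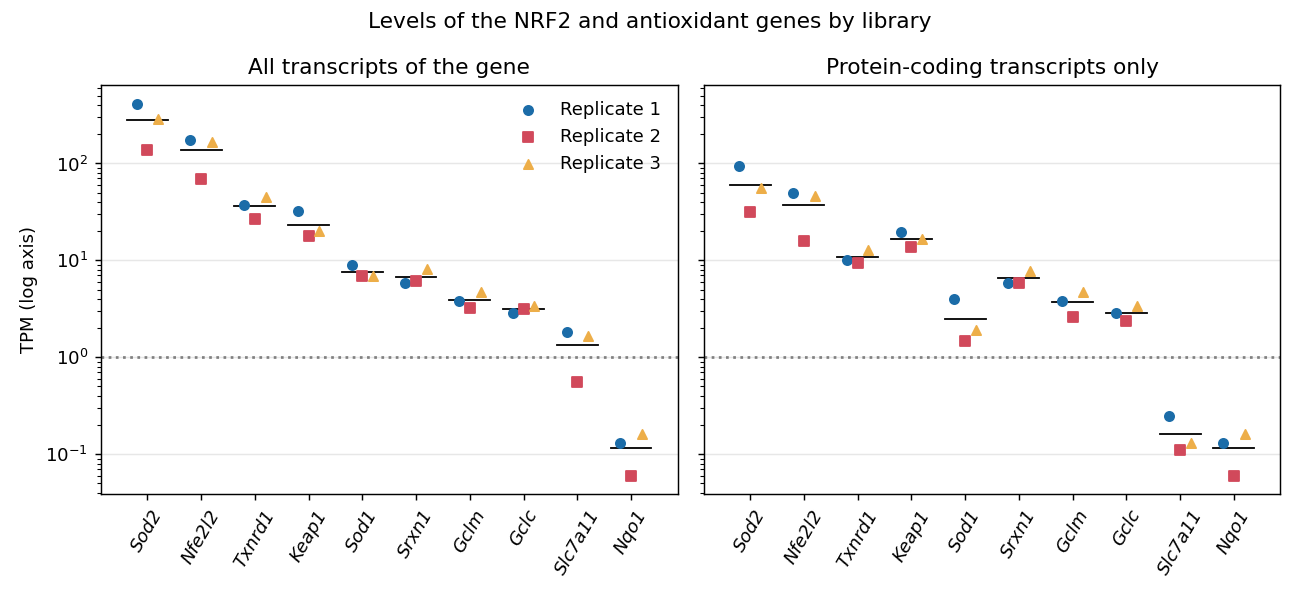
TPM on a log axis for each member in replicates 1, 2 and 3, ordered by mean level, with a bar at the mean of 3 libraries and a dotted line at 1 TPM. The left panel counts all transcripts of a gene and the right panel protein-coding transcripts only, where Sod2 averages 60.5 TPM, Sod1 2.46 TPM and Slc7a11 0.16 TPM.

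Neighbours in this order were not all separated. The ranges of the 3 libraries overlapped between Sod2 and Nfe2l2, between Txnrd1 and Keap1, between Sod1 and Srxn1, and between Gclm and Gclc. They did not overlap at the other 5 steps of the order. Within single libraries the order held in 3 of 3 at every step except Sod1 over Srxn1, which held in 2 of 3. This order and its steps are those of the gene table. In the second table Gclm was above Srxn1 in every library, at 8.67, 13.2 and 11.5 against 6.52, 5.97 and 8.12 TPM. The range of Slc7a11 there (6.34, 3.56 and 5.52 TPM) overlapped that of Gclc (5.21, 6.04 and 5.27 TPM).

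Among the regulators, Nfe2l2 (chr2:75675513-75704641) had 175, 68.6 and 167 TPM in replicates 1, 2 and 3, or 137 ± 59.3 TPM (SD, n = 3), which placed it at the 98.5th percentile of protein-coding genes. Replicates 1 and 3 were close to each other and replicate 2 was well below both. Keap1 (chr9:21229730-21239361), the substrate adaptor that holds NRF2, had 32.2, 17.9 and 19.9 TPM, or 23.3 ± 7.75 TPM. On the count scale its libraries were closer, with an SD of log2 CPM of 0.12. CPM here are counts scaled to library size with a TMM factor. An annotated antisense gene, Gm16754, overlaps Keap1 over 3317 bases and was given 202, 352 and 204 expected counts beside 750, 1110 and 749 for Keap1. Whether counting used strand is not given in the sources used here, so reads in that overlap cannot be told apart.

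Nfe2l2 exceeded Keap1 in every library, with TPM ratios of 5.44, 3.83 and 8.41. The size of this excess depended on the quantification and, in the first table, on which transcripts were counted. Over all transcripts of the second transcript table the ratios were 2.56, 1.99 and 3.74. Over protein-coding transcripts they were 2.50, 1.15 and 2.72 in the first table and 3.12, 1.51 and 3.48 in the second. Replicate 2 had the lowest ratio each time.

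The glutathione genes were low. Gclc (chr9:77754535-77794485), the catalytic subunit of glutamate-cysteine ligase, which makes the first step of glutathione synthesis, had 2.83, 3.12 and 3.40 TPM, or 3.12 ± 0.29 TPM. Gclm (chr3:122245557-122270732), the modifier subunit of that enzyme, had 3.82, 3.23 and 4.75 TPM, or 3.93 ± 0.77 TPM. These levels rest on 107, 199 and 154 counts for Gclc and on 85, 158 and 147 counts for Gclm. Gm17494, on the opposite strand, overlaps the span of Gclm over 14775 bases, holds 4.22% of the stretches of 31 bases of Gclm and was given 37.2, 97.1 and 49.2 counts. Gclm exceeded Gclc by 1.35, 1.04 and 1.40 fold in the gene table and by 1.66, 2.18 and 2.18 fold in the second table. In replicate 2 of the gene table the subunits were thus nearly equal, and in the second table that library was level with replicate 3.

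Slc7a11 (chr3:49892526-50443614) encodes the cystine carrier xCT, which feeds cysteine into glutathione. It had 1.83, 0.55 and 1.65 TPM, or 1.34 ± 0.69 TPM, from 74, 55.0 and 70 expected counts. Replicate 2 was the lowest and the only library under 1 TPM. The second table gave Slc7a11 6.34, 3.56 and 5.52 TPM, 3.82 fold more on average, and 352, 440 and 388 estimated counts. Some exonic sequence of Slc7a11 is shared with the tubulin gene Tuba1a (1.59% of its stretches of 31 bases) and that of Gclm with Ppia (3.55%), so part of the reads of both genes may be ambiguous, and the part of this in the gap between the tables was not tested. Gclm was 2.83 fold higher in the second table.

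Among the thioredoxin genes, Txnrd1 (chr10:82833951-82897712), the cytosolic thioredoxin reductase, had 37.3, 27.0 and 45.1 TPM, or 36.5 ± 9.09 TPM. It was the highest of the enzymes other than Sod2. The coding gene Eid3 lies within its span on the same strand over 1305 bases. Eid3 was given 314, 429 and 441 counts beside 760, 1419 and 1120 for Txnrd1. No stretch of 31 bases of the annotated Txnrd1 transcripts was found in another gene's transcripts. Srxn1 (chr2:152105516-152111376), sulfiredoxin, which reduces overoxidised peroxiredoxins, had 5.83, 6.10 and 8.13 TPM, or 6.69 ± 1.26 TPM. Srxn1 stood at 0.156, 0.226 and 0.180 of the level of Txnrd1. Over protein-coding transcripts of the first table the ratio was 0.577, 0.628 and 0.601, closer to 1 in each library. In the second table it was 0.126, 0.164 and 0.122 over all transcripts and 0.293, 0.398 and 0.301 over coding ones.

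Nqo1 (chr8:107388225-107403206), the quinone reductase that is often read as the marker of NRF2 activity, was at the detection limit. It had 2, 2 and 3 expected counts, with 95% exact Poisson intervals of 0.242 to 7.22, 0.242 to 7.22 and 0.619 to 8.77 counts, which cover counting error only. A few reads were thus found in each library, no more than the 3 counts that an observed count of 0 would still allow, which equal 0.220, 0.124 and 0.182 CPM at these depths. Its TPM values were 0.13, 0.06 and 0.16, and the second table had 6, 6 and 4 estimated counts. No difference between libraries was detectable for Nqo1 at this depth.

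The superoxide dismutases lay far apart. Sod2 (chr17:13006846-13040063), the mitochondrial manganese enzyme and a known NF-kB target, had 415, 136 and 288 TPM, or 280 ± 140 TPM, at the 99.5th percentile of protein-coding genes. Replicate 2 was lowest, replicate 1 highest and replicate 3 between them. Sod1 (chr16:90220754-90226329), the cytosolic copper and zinc enzyme, had 8.99, 6.82 and 6.87 TPM, or 7.56 ± 1.24 TPM. Sod2 exceeded Sod1 by 46.2, 20.0 and 42.0 fold, and by 45.3, 24.7 and 45.4 fold in the second table. Over protein-coding transcripts the excess was smaller, at 23.7, 21.5 and 28.9 fold in the first transcript table and 12.9, 13.8 and 15.4 fold in the second. Sod1 overlaps Scaf4 on the opposite strand over 650 bases, but their annotated transcripts share no stretch of 31 bases. Of the coding transcript Sod1-201, however, 35.4% of such stretches were found in other genes. The processed pseudogene Gm8566 holds 5.34% of the stretches of Sod1 and was given 0 counts in each library. Some of the sequence of Sod2 is shared with the long noncoding gene AC166110.4 (22.0% of its stretches of 31 bases) and with Rps6ka2 (20.0%). This sharing lay mostly in Sod2-202, of which 59.8% was found in other genes, against 3.88% of the main coding transcript Sod2-201.

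On the log2 CPM scale the members fell into those that differed more than 2 fold between libraries and those that did not. The 9 members with a mean of at least 50 counts could be compared in this way, and Nqo1 could not. In 3 of the 9 the highest library was at least 2 fold over the lowest, against 6.06% of 9540 protein-coding genes at the same count minimum. They were Sod2 (2.24 fold), Slc7a11 (2.22 fold) and Nfe2l2 (2.05 fold), and their SDs of 0.59, 0.60 and 0.59 lay between the 95.6th and the 95.9th percentile of these genes. All 3 were lowest in replicate 2, in the gene table on the CPM and TPM scales and in the second table. For Sod2 and Slc7a11 replicate 1 was highest on these scales. For Nfe2l2 replicate 1 was highest in the gene table and, at 161, 68.4 and 157, in TPM of the second table. In log2 CPM of the second table replicate 3 was highest for Nfe2l2.

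The libraries that set this differed by gene. Nfe2l2 was nearly equal in replicates 1 and 3, which differed by 0.04 in log2 CPM. Sod2 was intermediate in replicate 3, with replicate 1 higher than replicate 3 by 0.70, and for Slc7a11 that difference was 0.29. Without replicate 2, or without replicate 1, 0 of the 9 members differed 2 fold, against 2.30% and 2.18% of the protein-coding genes. By log2 CPM of the second table, with all 3 libraries, the number was 1 of the 9, Sod2. There replicate 1 exceeded replicate 2 in log2 CPM by 1.06 for Sod2, 0.97 for Nfe2l2 and 0.51 for Slc7a11. Replicate 2 was made from the least RNA and sequenced deepest, and the amount of RNA cannot be told apart from the replicate.

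**Figure D2:**
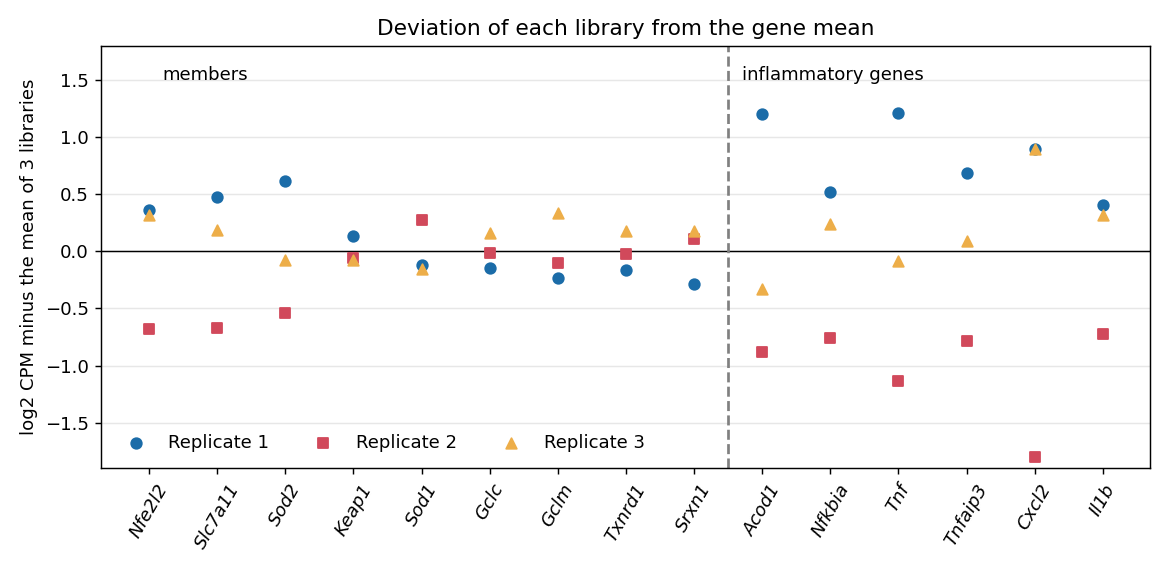
Log2 CPM of each library minus the mean of the 3 libraries, for the 9 members with a mean of at least 50 counts and for 6 inflammatory genes that were picked because they vary here. Nfe2l2, Slc7a11 and Sod2 are lowest in replicate 2, as are the inflammatory genes, and Gclc, Gclm, Txnrd1 and Srxn1 are lowest in replicate 1.

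The inflammatory genes moved in the same direction as Nfe2l2, Slc7a11 and Sod2. Replicate 1 exceeded replicate 2 by 1.04 in log2 CPM for Nfe2l2, 1.15 for Slc7a11 and 1.16 for Sod2, and by 1.14 for Il1b, 1.28 for Nfkbia, 1.47 for Tnfaip3, 2.08 for Acod1, 2.35 for Tnf and 2.70 for Cxcl2. For Slc7a11, which rests on few counts, the second table gave 0.51. The part of the inflammatory genes in the difference of the 3 members was not tested.

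The remaining members spread less. On the log2 CPM scale 4 of the 9, Gclc, Gclm, Txnrd1 and Srxn1, had their highest value in replicate 3, against 28.3% of the protein-coding genes, and the same 4 had their lowest in replicate 1, against 41.2%. The steps were small, with replicate 3 at 1.24, 1.48, 1.27 and 1.38 fold over replicate 1. The order was not the same on every scale. In TPM of the gene table Gclm and Txnrd1 were lowest in replicate 2. In log2 CPM of the second table Gclc and Srxn1 were highest and Gclm was lowest in replicate 2. In TPM of the second table, in contrast, Gclm was highest in replicate 2 (8.67, 13.2 and 11.5). Srxn1 was lowest in that library (6.52, 5.97 and 8.12). Keap1 peaked in replicate 1 on each of these scales. With Nfe2l2, Slc7a11 and Sod2 it made 4 of 9 members that peaked there in log2 CPM, against 32.1% of the genes. Sod1 alone, 1 of 9, peaked in replicate 2, against 39.6%. It did so in log2 CPM of the second table as well, together with Gclc and Srxn1. In TPM of either quantification Sod1 peaked in replicate 1. Keap1 and Sod1, 2 of 9, were lowest in replicate 3, against 24.9%, and the 3 members lowest in replicate 2 compare with 33.9%. The median SD of log2 CPM was 0.25 over the 9 members and 0.19 over the 9540 genes.

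TPM places replicate 2 low for most genes, not only for members. The median protein-coding gene with at least 50 counts was 0.32 higher in replicate 1 and 0.28 higher in replicate 3 than in replicate 2 on the log2(TPM + 1) scale. On that scale 7 of the 9 members were lowest in replicate 2, against 70.7% of these genes, whereas in log2 CPM 3 of the 9 members were. Between libraries, log2 CPM is therefore used here, and TPM between genes.

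The patterns of the most variable members had close neighbours among all genes. Likeness was measured as the distance between log2 CPM values centred on their gene mean, over 3 libraries, among 9539 other protein-coding genes. Nearest to Nfe2l2 were Abracl (distance 0.0076), Met (0.045) and Plek (0.052), and 15 genes lay within 0.1. Nearest to Slc7a11, the member with the largest SD in the gene table, were Kantr (0.019), Rab11fip1 (0.040) and Gm13212 (0.050), and 11 lay within 0.1. With 3 libraries many genes share a pattern, and these are descriptions. Among the members the closest pair was Gclc and Txnrd1, at 0.028, and Nfe2l2 and Slc7a11 were 0.17 apart.

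By TPM, much of the RNA of several members was assigned to transcripts that are not annotated as coding. Protein-coding transcripts held a median of 31.3% of TPM over the 9 members that have both kinds, with a range of 13.7 to 97.5%. Over 8576 protein-coding genes with both kinds the median was 48.3%, with quartiles of 31.1 and 69.0%. By expected counts, which short transcripts weigh on less, the comparison ran the other way, with medians of 83.7% over the 9 members and 69.3% over the same genes. Gclc, Gclm and Srxn1 were mostly coding, at 91.7, 93.6 and 97.5% of TPM, but at 54.0, 70.6 and 75.8% in the second table. Slc7a11, Sod2, Nfe2l2, Txnrd1 and Sod1 were mostly not, at 13.7, 21.7, 26.2, 30.2 and 31.3%.

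**Figure D3:**
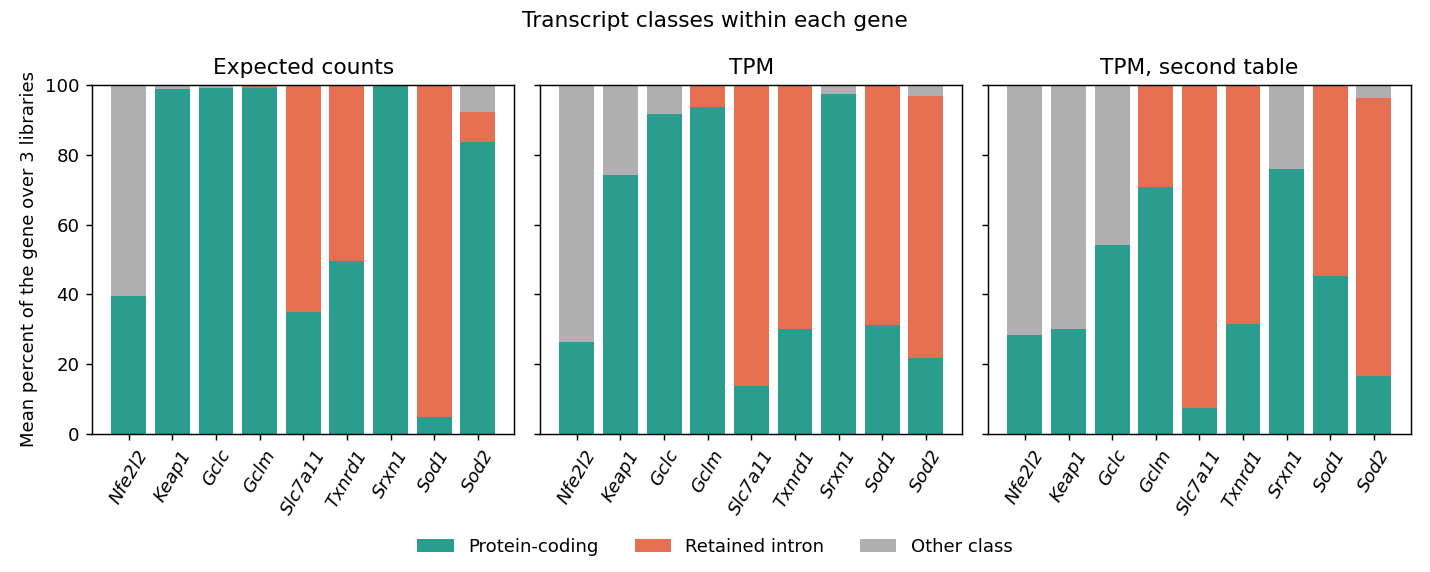
Mean percent over 3 libraries of each gene's expected counts (left), TPM (middle) and TPM in the second table (right) in protein-coding, retained-intron and other transcripts, for 9 members. For Sod2 the coding share is 83.7% of counts and 21.7% of TPM, and for Sod1 retained-intron transcripts hold 95.01% of counts.

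Sod2 shows how far a level can rest on 1 short transcript. Sod2-203, annotated as a retained intron and 334 bases long, took 4.64 ± 0.70% of the counts of the gene and 60.4 ± 2.98% of its TPM (SD, n = 3), because TPM divides by an effective length of 124, 104 and 105 bases in the 3 libraries. The second table gave it 58.5% of TPM. The part of Sod2-203 outside coding exons is its first 180 bases, at chr17:13010340-13010519 on the plus strand, shown here from the GENCODE transcript on GRCm38 with those bases in capitals and the next exonic bases in lower case. It reads into the exon through a TTTCAG end of the intron.
Sod2-203, intronic part: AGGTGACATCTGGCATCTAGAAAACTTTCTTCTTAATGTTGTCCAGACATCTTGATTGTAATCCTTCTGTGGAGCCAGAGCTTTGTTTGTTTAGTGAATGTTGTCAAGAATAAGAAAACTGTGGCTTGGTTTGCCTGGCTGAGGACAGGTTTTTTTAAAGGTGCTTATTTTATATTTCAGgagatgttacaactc

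The main coding transcript Sod2-201 had 94.1, 31.4 and 55.7 TPM. Counted on protein-coding transcripts alone, Sod2 had 94.4, 31.4 and 55.7 TPM, which still made it the highest member. In both ways of counting replicate 2 was lowest.

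In Nfe2l2 a single transcript annotated as noncoding was assigned most of the level. Nfe2l2-202 (chr2:75691052-75704489), a processed transcript of 1447 bases of which 1321 lie outside coding exons, had 60.4 ± 3.43% of the counts and 73.8 ± 2.80% of the TPM. The coding transcript Nfe2l2-201 had 49.5, 15.8 and 45.8 TPM, again lowest in replicate 2, and the second table gave it 49.2, 17.4 and 46.1 TPM. In Sod1 the retained-intron transcript Sod1-202 had 95.01% of counts and 68.7% of TPM, which left 19.7, 15.1 and 10.8 counts for the coding Sod1-201. Its coding level of 3.99, 1.46 and 1.93 TPM thus rests on few reads. Whether reads assigned to Nfe2l2-202 and Sod1-202 come from these transcripts or from unspliced RNA of the genes was not tested.

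In Txnrd1 the retained-intron transcripts Txnrd1-202 and Txnrd1-207 held 34.8 and 23.6% of TPM, and coding transcripts 10.1, 9.41 and 12.9 TPM in total. In Slc7a11 the tables disagreed on the transcript: the first put 70.5% of TPM on Slc7a11-204 and the second 70.4% on Slc7a11-202, both retained introns. The coding level of Slc7a11 was 0.25, 0.11 and 0.13 TPM in the first table. In Keap1, Keap1-203, a processed transcript of 317 bases, took 1.19% of counts, 25.9% of TPM in the first table and 70.0% in the second. Keap1 as a whole was 1.99 fold higher in the second table, and its coding level was 16.8 ± 3.03 TPM in the first and 13.5 ± 2.14 TPM in the second. Counting all transcripts, 6 of the 10 members were within 1.5 fold between the tables, and counting coding transcripts 8 of the 10 were, all but Gclm and Slc7a11.

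Over coding transcripts of the first table the order of the members changed. Sod2 (60.5 TPM) and Nfe2l2 (37.0 TPM) stayed at the top, Keap1 (16.8 TPM) passed Txnrd1 (10.8 TPM), and Sod1 (2.46 TPM) came after Srxn1 (6.50 TPM), Gclm (3.72 TPM) and Gclc (2.86 TPM). Slc7a11 at 0.16 ± 0.08 TPM and Nqo1 at 0.12 ± 0.05 TPM were not separated beyond their spread in the first table. In the second their ranges did not overlap, at 0.479, 0.317 and 0.328 TPM for Slc7a11 and 0.248, 0.111 and 0.131 TPM for Nqo1. Those levels of Nqo1 rest on 6, 6 and 4 estimated counts.

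Of 63 further genes of the pathway in 7 lists, 53 reached 1 TPM in every library, against 45.2% of 22028 protein-coding genes. The same share stands beside the count of each list below. Among 11 other regulators 10 did, led by Sqstm1, the autophagy receptor that sequesters KEAP1, with 347, 132 and 322 TPM. Like Nfe2l2 it was lowest in replicate 2, with replicate 1 higher by 1.01 in log2 CPM. Nfe2l1, a relative of NRF2, averaged 55.7 ± 14.4 TPM and the small MAF gene Mafg 51.5 ± 4.62 TPM, and the repressor gene Bach2 was lowest at 0.50 ± 0.14 TPM.

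In the glutathione list 11 of 15 reached 1 TPM. Slc3a2, the heavy chain that pairs with the xCT protein, had 117, 71.3 and 110 TPM, far above the 1.83, 0.55 and 1.65 TPM of Slc7a11. Glrx, a glutaredoxin, averaged 31.6 ± 19.1 TPM and the lipid peroxidase gene Gpx4 28.4 ± 3.45 TPM, and Gsta4 was listed at 0. In the thioredoxin list 10 of 11 reached 1 TPM, with the peroxiredoxin gene Prdx1 at 151 ± 35.1 TPM, the thioredoxin inhibitor gene Txnip at 41.1 ± 12.9 TPM and Txn2, the mitochondrial thioredoxin, at 17.2 ± 2.24 TPM. Txnrd3 was the lowest of them, at 0.66 ± 0.16 TPM.

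Beside the superoxide dismutases, Ccs, the copper chaperone of SOD1, averaged 20.7 ± 4.27 TPM and catalase (Cat) 5.93 ± 1.06 TPM, and the extracellular enzyme gene Sod3 had at most 0.02 TPM. In the heme, iron and quinone list 7 of 9 reached 1 TPM, and the ferritin genes Fth1 and Ftl1 were highest at 887 ± 296 and 310 ± 67.5 TPM, followed by the iron exporter gene Slc40a1 at 47.5 ± 17.5 TPM. Cbr3, a carbonyl reductase, was lowest at 0.46 ± 0.08 TPM. Hmox1, heme oxygenase 1, a target shared by NRF2 and BACH1 and named after its values were seen, had 23.7, 21.3 and 15.95 TPM.

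**Figure D4:**
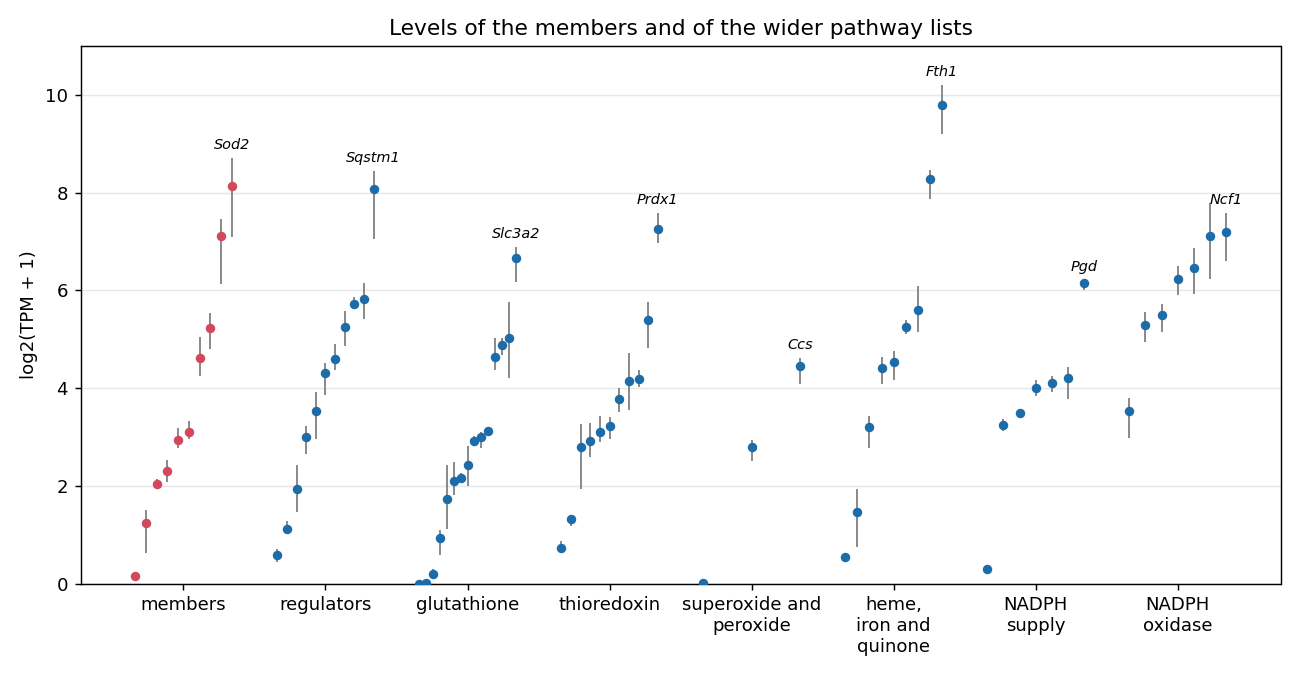
Mean log2(TPM + 1) of the 10 members and of 63 further genes in 7 lists, sorted by level within each list, with lines from the lowest to the highest of 3 libraries and the highest gene named. Levels are from the gene table, where Sod2 at 280 TPM and Sqstm1 at 267 TPM are close to each other and Fth1 at 887 TPM is above both. In the second table they average 305, 411 and 616 TPM.

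NADPH, the reductant that the glutathione and thioredoxin systems draw on, is supplied by enzymes of which 6 of 7 reached 1 TPM. Pgd averaged 69.8 ± 5.93 TPM, Idh2 17.4 ± 4.20 TPM and Tkt 16.1 ± 1.95 TPM, and Me1, a target of NRF2 in other tissues, was lowest at 0.24 ± 0.07 TPM. The lowest log2 CPM of all 6 of these with enough counts was in replicate 1, against 41.2% of the protein-coding genes. Their SDs of log2 CPM ran from 0.045 in Tkt to 0.57 in Idh2. The NADPH oxidase, which makes superoxide in phagocytes, had 7 of 7 genes above 1 TPM, led by Ncf1 at 145 ± 47.5 TPM, Cybb at 137 ± 75.7 TPM and Ncf4 at 87.3 ± 27.6 TPM, with Rac1 lowest at 10.6 ± 3.29 TPM. Of these 7 genes 5 peaked in replicate 1, against 32.1% of the protein-coding genes, and 5 were lowest in replicate 2, against 33.9%. Levels and orders in all 7 lists are from the gene table. In the second table Rac2 led the oxidase genes at 211 TPM, against 38.3 TPM in the gene table. Rac1 stayed lowest there, at 51.5 TPM. Slc3a2 averaged 280 TPM in the second table, against 99.6 TPM, whereas Pgd was close at 67.6 TPM. Over the 51 further genes with enough counts, 21, 14 and 16 were highest in replicates 1, 2 and 3, against 32.1, 39.6 and 28.3%. In the same order, 22, 19 and 10 were lowest, against 41.2, 33.9 and 24.9% of the protein-coding genes.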

How the data were processed

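Chromatin-fraction total RNA was measured in 1 group of 3 libraries, grouped and numbered by the labels. Per the file headers, the authors' gene table and first transcript table hold expected counts, TPM and FPKM, and the second transcript table estimated counts and TPM, on mm10 with annotation M21. For programs, aligner and use of strand, nothing is given in the sources used here. FPKM by the authors served as an alternative only.

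Symbols, classes and coordinates came from GENCODE M21 by identifier, and promoters from RefSeq (GRCm38.p6). Entries that name no gene held 2.46, 0.484 and 0.327% of counts in replicates 1, 2 and 3 and stayed out of library sizes. Expected counts were rounded to whole numbers for log2 CPM, with TMM factors of 1.03, 0.984 and 0.985 (edgeR 4.0.16 in R 4.3.3) and a prior count of 2. Libraries were compared over genes averaging 50 counts or more. DESeq2 1.42.0 size factors were an alternative. Plots and tables used Python 3.11.15, pandas 2.3.3, numpy 2.4.6 and matplotlib 3.10.9. The calculation was tested on simulated data.

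The members and lists were chosen with earlier results of these data known. Named genes of the lists are the 3 highest and the lowest by mean TPM, and neighbours are the 3 nearest. Alternatives were the second table, FPKM, other pseudocounts, filters and scalings, and leaving out each library. Counting coding transcripts only, the second table for variation and the motif TGAGNNNGC were added after the data were seen.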

Additional observations from a re-analysis of the deposited data

How the results depend on the processing

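Of the summary values, 62 stayed within their spread or within 1.5 times of the reported count under the alternatives, 18 moved and 1 reversed, and of the values of single genes 106 stayed, 21 moved and 5 reversed. The reversal was the level of the list, which was 2.28 in log2(TPM + 1) against all protein-coding genes and -0.54 against those averaging 1 TPM or more, a background built from higher genes. It was 1.62 in the second table, 2.23 in FPKM and 3.30 with a pseudocount of 0.1. The median member level of 7.12 TPM became 9.41 in the second table and 5.11 over coding transcripts. The log2 ratio of Nfe2l2 over Keap1 was 2.48, against 1.42 in the second table. Over coding transcripts it was 0.99 in the first table and 1.35 in the second. That of Gclm over Gclc was 0.32, against 1.00 in the second table, and that of Srxn1 over Txnrd1 was -2.43, against -2.88. Over coding transcripts the ratio of Srxn1 over Txnrd1 was -0.73 in the first table and -1.61 in the second. Members lowest in replicate 1 numbered 4 in log2 CPM and 2 in TPM, lowest in replicate 2 numbered 3 and 7, and lowest in replicate 3 numbered 2 and 0. Members highest in replicate 2 numbered 1 in log2 CPM, 0 in TPM and 3 in log2 CPM of the second table. The 3 members that differed 2 fold became 1 in log2 CPM of the second table and between 0 and 3 when a library was left out. The difference of replicate 1 minus replicate 2 reversed in TPM to 0.19 for Gclm, 0.45 for Txnrd1 and 0.35 for Sod1. It reversed to 0.043 for Gclm in log2 CPM of the second table and to 1.02 for Sod1 over coding transcripts. Apart from the construction of the background, the cause of these changes was not tested. Leaving out single libraries kept the list level between 2.28 and 2.29 and the coding share of TPM between 31.7 and 36.2%. No paired analysis was possible because there is 1 group. Depth limits Nqo1, Slc7a11 and the coding transcript of Sod1.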
